A study of Mus musculus with 6 samples.

Results

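The levels of 9 genes of the MHC class I presentation pathway were followed through the lymph node cells of pregnant mice. They were chosen by name: B2m, the 4 heavy chain genes H2-K1, H2-D1, H2-Q7 and H2-T23, the peptide supply genes Tap1, Tapbp and Erap1, and the transactivator gene Nlrc5. All 9 were among the 14125 genes of the deposited count matrix, and their levels were described over its 9 annotated cell types and 5 CD4 subsets. The tested mice were 4 Aire-DTR dams, 3 with pregnancies recorded as IUGR (mice 7, 8 and 36) and 1 as resorbed (mouse 4), and they were set against 3 WT dams (mice 1, 6 and 97). Every dam, WT included, had been mated to a BALB/c male and received diphtheria toxin (DT) through the first 9 days of pregnancy, and nodes were taken at E9.5. In an Aire-DTR mouse the diphtheria toxin receptor is driven by the Aire promoter, so that DT kills cells that express Aire. The sources used here do not give the strain or the age of the dams. Uterine-draining nodes (udLN) and brachial nodes (brLN) were collected from each mouse, and the mice were loaded in 3 pools, with mice 8 and 6 in pool 1, mice 36 and 97 in pool 2, and mice 4, 7 and 1 in pool LN.

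MHC class I molecules carry short peptides from inside the cell to its surface, where CD8 T cells and NK cells read them. A polymorphic heavy chain pairs with the invariant light chain beta-2 microglobulin, encoded by B2m. H2-K1 and H2-D1 encode the classical heavy chains, H2-Q7 a heavy chain of the Qa-2 group, and H2-T23 the heavy chain of Qa-1, which presents leader peptides of other class I chains to NK cell receptors. Tap1 is a subunit of the pump that moves peptides into the endoplasmic reticulum, Tapbp (tapasin) holds empty heavy chains at that pump, and Erap1 trims the peptides to length. NLRC5 has no DNA-binding domain of its own and acts on the promoters of class I genes through factors bound there, and lymphocytes are known for high class I levels.

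In the GENCODE annotation of genome build GRCm38, 6 of the genes lay on chromosome 17, which holds the mouse MHC: Tapbp at chr17:33915899-33929292 (+), H2-K1 at chr17:33996017-34000347 (-), Tap1 at chr17:34187553-34197225 (+), H2-D1 at chr17:35262730-35267499 (+), H2-Q7 at chr17:35439155-35443773 (+) and H2-T23 at chr17:36029773-36032855 (-). B2m lay at chr2:122147686-122153083 (+), Erap1 at chr13:74639568-74693201 (+) and Nlrc5 at chr8:94434356-94527272 (+). RefSeq promoter entries of GRCm38.p6 were matched for 8 of the 9 genes. The windows shown are the 200 bases before each RefSeq start, because their shared boxes are where the class I genes are known to be controlled together. Capitals mark the 4 motifs searched on both strands: the NF-kB consensus (kB, 10 bases), IRF (AANNGAAA), X2 (TGACG) and Y (CCAAT).

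H2-K1, chr17:34000348-34000547 (-), the first of its 2 entries: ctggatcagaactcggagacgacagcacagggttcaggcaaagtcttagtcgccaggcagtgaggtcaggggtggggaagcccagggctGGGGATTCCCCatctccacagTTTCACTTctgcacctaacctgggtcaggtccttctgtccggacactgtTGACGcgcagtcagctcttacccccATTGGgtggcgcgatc
H2-D1, chr17:35262894-35263093 (+): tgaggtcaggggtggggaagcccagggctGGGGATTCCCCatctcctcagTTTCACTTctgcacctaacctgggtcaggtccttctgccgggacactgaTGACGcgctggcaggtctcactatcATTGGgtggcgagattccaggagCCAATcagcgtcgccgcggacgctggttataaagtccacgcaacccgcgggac
H2-Q7, chr17:35438955-35439154 (+): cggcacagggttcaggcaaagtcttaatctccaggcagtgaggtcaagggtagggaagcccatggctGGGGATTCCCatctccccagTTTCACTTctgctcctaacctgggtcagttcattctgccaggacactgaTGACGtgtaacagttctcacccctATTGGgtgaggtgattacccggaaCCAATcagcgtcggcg
B2m, chr2:122147487-122147686 (+): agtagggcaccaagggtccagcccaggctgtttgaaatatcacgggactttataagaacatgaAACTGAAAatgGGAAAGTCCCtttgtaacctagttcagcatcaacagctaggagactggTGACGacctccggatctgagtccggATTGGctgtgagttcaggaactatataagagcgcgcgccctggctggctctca
H2-T23, chr17:36032702-36032901 (-): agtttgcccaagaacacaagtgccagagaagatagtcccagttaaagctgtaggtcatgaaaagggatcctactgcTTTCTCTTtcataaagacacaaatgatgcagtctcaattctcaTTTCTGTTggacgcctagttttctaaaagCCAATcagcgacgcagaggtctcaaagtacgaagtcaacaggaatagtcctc

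The windows of H2-K1, H2-D1, H2-Q7 and B2m each held all 4 motifs, in the order kB, IRF, X2, Y towards the start in the heavy chain genes and IRF, kB, X2, Y in B2m. Among 32851 promoter windows of the same length, kB occurred in 6.07%, IRF in 17.02%, X2 in 15.66% and Y in 29.35%, and all 4 occurred together in 16 windows. The kB box began 111 bases before the start in the H2-K1 window, 171 before it in the H2-D1 window and 133 before it in the H2-Q7 window, and it matched at 2 overlapping places in the windows of H2-K1 and H2-D1. In the B2m window kB began 126 bases before the start and IRF 137 bases before it. The H2-T23 window held IRF at 2 places and Y once, and neither kB nor X2. Of the windows not printed, that of Tap1 held X2 alone, that of Tapbp held Y alone and that of Erap1 held none of the 4. A match describes letters in this window and is not a measured binding site.

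The measurement was a 3′ droplet count of unique molecular identifiers (UMIs), with 29210327 UMIs in 9427 cells and a median of 2878 per cell. The 14 samples of a mouse and a node held 48 cells (udLN of WT mouse 97) to 1632 cells (brLN of Aire-DTR mouse 7). The authors' annotation gave 2849 B cells, 2504 CD8+ Naive T and 2249 CD4+ Naive T cells, 449 CD8+ Mem T and 692 CD4+ Mem T cells, 425 CD4+ Treg, 98 gdT, 92 Myeloid and 69 NK cells, and a subset for 1101 CD4 cells. The annotation came from expression in the same cells. The defining markers followed it, with Cd79a at 4707 CPM (UMIs per 1000000 UMIs of the cells summed) in B cells and 6.33 to 15.9 CPM in the T cell types of either lineage, and Foxp3 at 423 CPM in CD4+ Treg and 5.16 CPM in CD4+ Naive T. Hemoglobin transcripts, a mark of red cells, were at 425 to 3919 CPM in the sums of pools 1 and 2 and at 0 to 29.4 CPM in those of pool LN. Cd79a UMIs occurred in 2.61% of T cells and Cd3 UMIs in 9.83% of B cells, and 208 barcode sequences occurred in more than 1 well. Aire itself had 6 UMIs in all Aire-DTR cells and 3 in all WT cells, which checks nothing about the depletion.

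Heavy chain genes resemble each other, and the sources used here do not say how reads common to several of them were assigned. In the last 500 bases of their GRCm38 transcripts, 24.4% of the 31-base words of H2-K1, 27.2% of those of H2-D1, 21.0% of those of H2-Q7 and 66.0% of those of H2-T23 also occurred in another gene. For H2-K1 and H2-D1 the other genes included each other, for H2-Q7 they were led by H2-Q5 and H2-Q10, and for H2-T23 by the pseudogene H2-T-ps. B2m and Nlrc5 shared no such word, Erap1 shared 1.5%, Tap1 4.65% and Tapbp 8.14%. Levels of single heavy chain genes are therefore uncertain, also because these genes differ between mouse strains. In each comparison below, a gene was called where the Benjamini-Hochberg adjusted p of edgeR's quasi-likelihood test, over all genes tested, was below 0.05. Log2 differences were scaled by TMM, which sets the bulk of genes level between groups, while CPM are set by a sum's own UMI total, so the signs of the 2 can differ for small differences.

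All 9 genes were detected in every cell type, and their order over types differed from gene to gene (the plot of CPM by cell type in brLN). Together they made up 1.05% of all UMIs in CD4+ Treg, 0.992% in CD4+ Mem T, 0.831% and 0.799% in the CD8+ and the CD4+ naive T cells, 0.702% in CD8+ Mem T and 0.659% in B cells, mice and nodes pooled. Levels given next are the lowest, median and highest mouse in brLN, with 7 mice for B cells and either naive T cell type, 6 for CD4+ Mem T, and 5 each for CD4+ Treg and CD8+ Mem T.

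The light chain gene B2m stood at 1934, 2218 and 2311 CPM in CD4+ Mem T, 1846, 2114 and 2312 in CD8+ Naive T, 1961, 2052 and 2786 in CD4+ Treg, 1855, 1923 and 2008 in CD8+ Mem T, and 1731, 1919 and 2069 in CD4+ Naive T. B cells were lowest, at 1087, 1400 and 1677 CPM. Neighbours in that order overlapped except at the last step, where every B cell value lay below every CD4+ Naive T value.

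The classical heavy chain gene H2-K1 stood at 3595, 4065 and 5000 CPM in CD4+ Treg and 3433, 3751 and 3864 in CD4+ Mem T. It stood at 2840, 3117 and 3240 CPM in CD4+ Naive T, 2666, 3085 and 3167 in CD8+ Naive T, 2310, 2449 and 2814 in CD8+ Mem T, and 2001, 2410 and 2481 in B cells. The single gap without overlap lay between CD4+ Mem T and CD4+ Naive T. H2-D1, the other classical heavy chain gene, was also highest in CD4+ Treg, at 2392, 2765 and 3072 CPM, followed by CD4+ Mem T at 2157, 2502 and 2599 CPM. It differed little between CD4+ Naive T (1913, 2097 and 2222 CPM), B cells (1764, 2095 and 2157 CPM) and CD8+ Naive T (1848, 2038 and 2125 CPM), whose ranges overlapped. CD8+ Mem T had the lowest median, at 1569, 1716 and 1826 CPM. Its values did not overlap those of CD8+ Naive T but overlapped those of B cells.

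H2-Q7, the Qa-2 group gene, had another order of medians, led by CD8+ Naive T at 463, 553 and 717 CPM. CD4+ Treg followed at 432, 541 and 905 CPM, CD8+ Mem T at 418, 508 and 610, CD4+ Mem T at 280, 489 and 613, and CD4+ Naive T at 313, 373 and 530. By mean over mice CD4+ Treg stood above CD8+ Naive T (612 against 559 CPM). B cells again lay below every CD4+ Naive T value, at 168, 271 and 302 CPM. H2-T23, the Qa-1 gene, stood at 98.4, 166 and 190 CPM in CD4+ Treg and 106, 136 and 164 in B cells. It was at 81.9, 107 and 130 CPM in CD4+ Naive T, 79.1, 105 and 138 in CD8+ Naive T, 49.4, 84.7 and 130 in CD4+ Mem T, and 40.0, 71.9 and 121 in CD8+ Mem T. All neighbours in that order overlapped.

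Among the peptide supply genes no neighbours in the order of types were free of overlap. Tap1, the pump subunit, had medians of 145 to 156 CPM in 5 of the types and 93.5 CPM in CD8+ Mem T, where single mice ran from 57.5 to 164 CPM. Tapbp, the tapasin gene, had medians of 180 CPM in CD8+ Mem T to 251 CPM in CD4+ Treg. Erap1, the trimming enzyme gene, had medians of 46.0 CPM in CD8+ Naive T, 40.5 in CD8+ Mem T, 38.2 in CD4+ Mem T, 37.1 in CD4+ Naive T, 25.2 in B cells and 18.7 in CD4+ Treg. Erap1 had 0 UMIs in CD4+ Treg of 2 mice, where 3 counts, the limit that a count of 0 allows, would be 35.7 CPM in Aire-DTR mouse 4 and 27.9 CPM in WT mouse 1. Nlrc5, the transactivator gene, was at 39.8, 61.8 and 74.4 CPM in CD8+ Naive T and 33.8, 45.3 and 72.5 CPM in CD4+ Naive T, with B cells lowest at 4.55, 24.9 and 29.1 CPM.

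**Figure D1:**
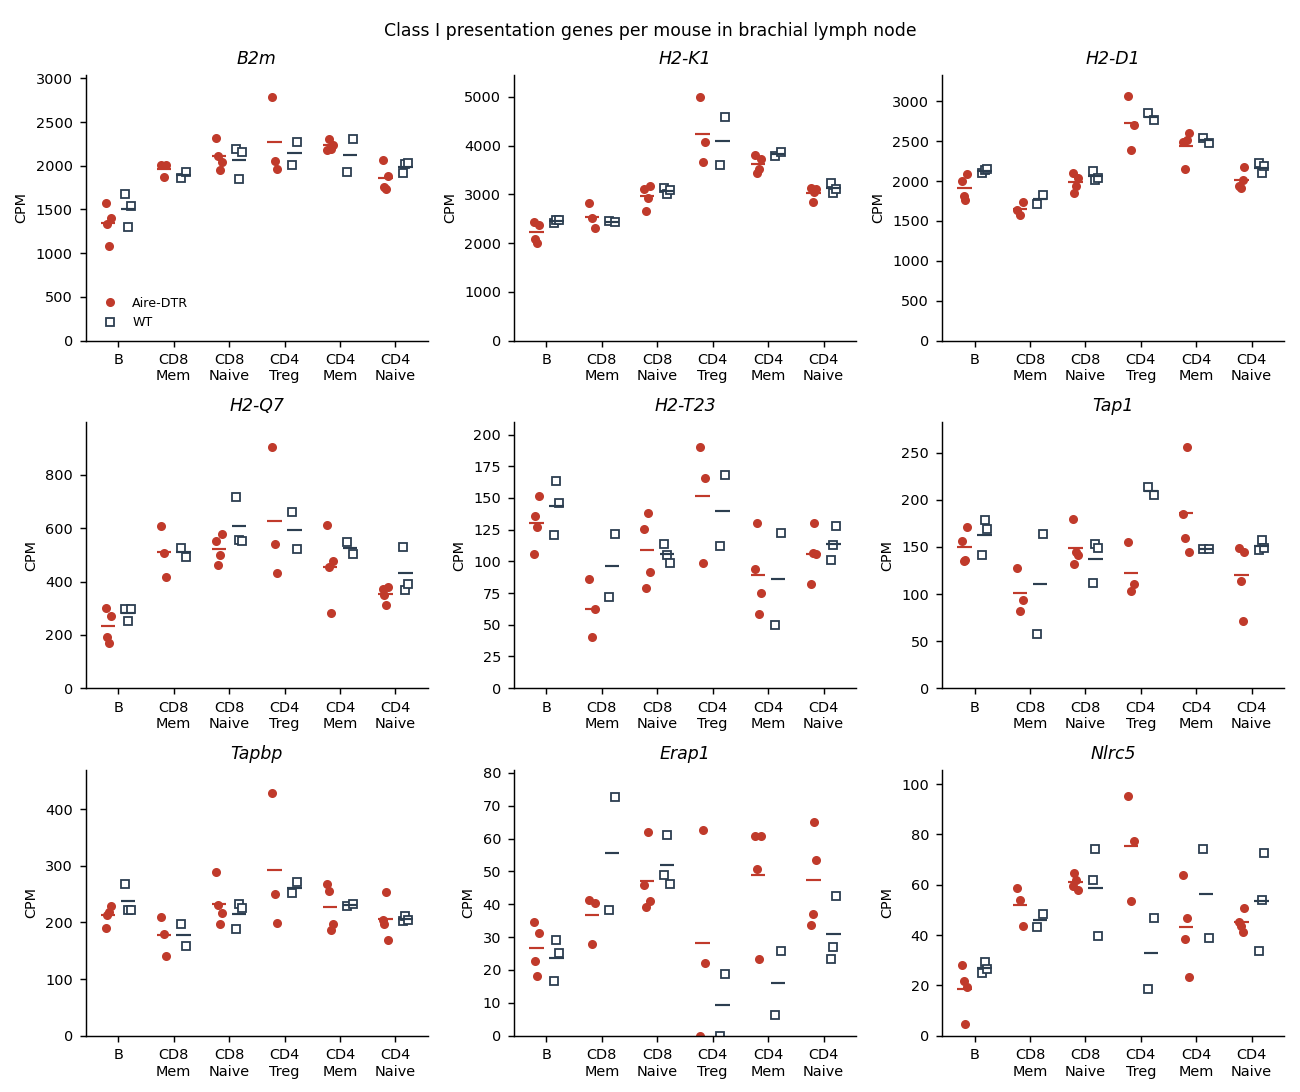
Levels of the 9 genes in brLN, in CPM (linear axes), by annotated cell type. Each point is 1 mouse with at least 20 cells of the type, filled circles are Aire-DTR mice, open squares are WT mice and the short line is the mean over mice. B cell points for B2m, H2-K1, H2-Q7 and Nlrc5 lie below all CD4+ Naive T points, and CD4+ Treg and CD4+ Mem T lead for H2-K1.

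B cells had less B2m, H2-K1, H2-Q7, Erap1 and Nlrc5 and more H2-T23 than CD4+ Naive T of the same mice. The fall was largest for Nlrc5, and H2-D1, Tap1 and Tapbp did not pass the test. In brLN of 7 mice 6 of the 9 genes were called, 1 higher and 5 lower, beside 37.4% of the 8188 genes tested. B2m fell by 0.45 on the log2 scale (SE 0.051, adjusted p 2.66e-09), H2-K1 by 0.43 (SE 0.041, adjusted p 4.57e-11) and H2-Q7 by 0.62 (SE 0.082, adjusted p 6.93e-08). Nlrc5 fell by 1.06 (SE 0.20, adjusted p 3.36e-05). B cells were lower in 7 of 7 mice for each of these 4 genes. Erap1 fell by 0.60 (SE 0.20, adjusted p 0.0176), lower in 5 of 7 mice. H2-T23 rose by 0.31 (SE 0.11, adjusted p 0.0201), higher in 6 of 7 mice. H2-D1 had a log2 difference of -0.07 (adjusted p 0.205). The median log2 difference of the 9 genes was -0.43, beside 0.045 over all genes tested. The H2-T23 call was lost in 5 of 14 alternatives and the Erap1 call in 2, and Nlrc5 missed the threshold in udLN (log2 difference -0.65, adjusted p 0.120).

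Around these genes, the list counts in B cells over CD4+ Naive T stand beside the 37.4% of all genes called in this comparison, and the proteasome lists lay below that share. Of the interferon response genes, 10 of 15 fell and 0 rose in B cells, among them Gbp2 (log2 difference -2.18) and Igtp (-1.64), both interferon-induced GTPase genes, and Ifit1 (-1.91), an antiviral RNA-binding protein gene. Of the promoter factors, 6 of 16 rose and 2 fell. Ciita, the class II counterpart of Nlrc5, was higher by 7.24, Rfx5, a subunit of the complex that binds class I and II promoters, by 1.68 and Nfkb1, an NF-kB subunit gene, by 0.97. Of the loading partners, the chaperone genes Hspa5 (0.91), Calr (0.64) and Canx (0.51) rose, and Tap2 (-0.44), the other pump subunit, and Pdia3 (-0.24) fell, among 8 tested. Of the other class I and class I-like genes, 3 rose and 3 fell among 9. H2-Q6, another gene of the Q region, rose by 1.40 where H2-Q7 fell by 0.62, and how reads were split between such related genes is not known. Of the immunoproteasome genes only Psme2 (-0.50) was called among 6, and of the constitutive proteasome genes only Psma1 (0.36) among 6.

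Naive CD8 T cells had more H2-Q7 and slightly more B2m and Tapbp than naive CD4 T cells. In brLN of 7 mice 3 of 9 genes were called, all higher, beside 11.6% of 7562 genes. H2-Q7 averaged 559 ± 79.8 CPM in CD8+ Naive T and 387 ± 68.5 CPM in CD4+ Naive T (SD, n = 7 mice each), higher in 7 of 7 mice (log2 difference 0.58, SE 0.055, adjusted p 4.26e-14). B2m was higher in 6 of 7 mice (0.21, SE 0.034, adjusted p 1.11e-06). Tapbp was higher in 5 of 7 mice (0.24, SE 0.080, adjusted p 0.0338), a call that was lost in 9 of 14 alternatives. Scaled by TMM the 9 log2 differences were all positive (median 0.21), while with library size alone 6 were positive and the median of all genes was -0.07. The CPM of H2-K1 was lower in CD8+ Naive T in 6 of 7 mice although its log2 difference was 0.04. Thinned to 1500 UMIs per cell, 56.3% of CD8+ Naive T, 43.6% of CD4+ Naive T and 31.1% of B cells had an H2-Q7 UMI, against 81.3%, 63.7% and 41.9% without thinning. Thinning left out 57, 105 and 249 shallower cells of these types, and no type here lacks the gene, so no background share could be set beside these.

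Of the immunoproteasome genes, 4 of 6 rose in CD8+ Naive T over CD4+ Naive T and 0 fell, beside calls for 11.6% of all genes, namely Psmb10 (log2 difference 0.52), Psmb9 (0.32) and Psmb8 (0.24), the 3 catalytic subunits, and the activator gene Psme1 (0.37). The split of all called genes was 350 higher and 544 lower with library size alone, against 490 higher and 386 lower scaled by TMM. Among the other class I genes H2-Q6 (1.27), Fcgrt (2.27), the neonatal Fc receptor gene, and H2-Q4 (0.21) rose and H2-T24 (-1.03) fell, of 9 tested. Of 8 loading partners Tapbpl (1.11), a tapasin relative that edits peptides, and Sec61b (0.40) rose and Pdia3 (-0.39) fell. Interferon response genes rose in 3 of 15 cases (Gbp2 0.64, Bst2 0.36, Rtp4 0.36).

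Relative to all UMIs, memory CD8 T cells had less H2-K1 and H2-D1 than naive CD8 T cells. Per cell, mice and nodes pooled, the memory cells held more UMIs of both: 12.3 against 10.4 for H2-K1 and 8.27 against 6.87 for H2-D1. Their median depth was 4996 UMIs per cell, against 3380 in naive cells. In brLN of 5 mice 2 of 9 genes were called, both lower, beside 6.02% of 6831 genes. H2-K1 was at 2814 CPM in mouse 4, 2508 in mouse 7, 2310 in mouse 36, 2449 in mouse 1 and 2432 in mouse 97 for CD8+ Mem T, against 3116, 2666, 3167, 3124 and 3085 CPM in CD8+ Naive T of these mice in the same order. The memory cells were lower in 5 of 5 mice, although the memory value of mouse 4 lay above the naive value of mouse 7. H2-K1 fell by 0.19 on the log2 scale (SE 0.046, adjusted p 0.00439). For H2-D1 the CPM in CD8+ Mem T were 1639, 1569, 1739, 1716 and 1826, against 2106, 1848, 2043, 2125 and 2038 in CD8+ Naive T. The groups did not overlap, and H2-D1 fell by 0.18 (SE 0.048, adjusted p 0.0113). All 9 log2 differences were negative (median -0.18, beside -0.0031 over all genes), though 1 turned positive with DESeq2-style size factors. The calls rest on few mice: without WT mouse 1 neither was called, and in udLN, with 2 mice, neither was called. Of the interferon response genes, 0 of 15 rose and 4 fell, among them Igtp (-1.11), Ifit1 (-1.02) and Gbp2 (-0.83). The immunoproteasome subunit gene Psmb9 (-0.37) and the class I genes H2-T22 (-0.48), H2-Q4 (-0.44) and H2-T10 (-0.95) fell as well, while Sec61b (0.30) and Fcgrt (1.71) rose. Library size alone gave a split of all called genes of 186 higher and 230 lower, against 261 higher and 150 lower scaled by TMM, and called 5 of the 9 genes lower.

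Regulatory T cells had more H2-K1, H2-D1 and H2-Q7 than naive CD4 T cells. In brLN of 5 mice these 3 of 9 genes were called, all higher, beside 6.22% of 5495 genes. H2-K1 was at 5000 CPM in mouse 4, 3666 in mouse 7, 4065 in mouse 36, 3595 in mouse 1 and 4578 in mouse 97 for CD4+ Treg, against 3133, 2840, 3120, 3240 and 3117 CPM in CD4+ Naive T. Every CD4+ Treg value was above every CD4+ Naive T value (log2 difference 0.31, SE 0.067, adjusted p 0.000577). H2-D1 was at 3072, 2392, 2703, 2850 and 2765 CPM in CD4+ Treg, against 1936, 1913, 2179, 2222 and 2183 CPM in CD4+ Naive T, again without overlap (0.28, SE 0.070, adjusted p 0.00435). H2-Q7 was at 905, 541, 432, 661 and 523 CPM in CD4+ Treg, against 373, 348, 381, 530 and 392 CPM in CD4+ Naive T. It was higher in 5 of 5 mice with overlapping groups (0.47, SE 0.12, adjusted p 0.00738). With no low-count filter none of the 3 calls remained, and without WT mouse 97 H2-K1 (adjusted p 0.0650) and H2-D1 (adjusted p 0.0572) missed the threshold. H2-Q7 missed it in udLN (log2 difference 0.26, adjusted p 0.619), without Aire-DTR mouse 4 (adjusted p 0.146) and without Aire-DTR mouse 7 (adjusted p 0.0961). All called genes split into 204 higher and 112 lower with library size alone, against 152 higher and 190 lower scaled by TMM, and H2-K1, H2-D1 and H2-Q7 were called under both. The immunoproteasome gene Psmb8 rose by 0.41, the interferon-induced Gbp2 by 1.34 and Gbp7 by 1.35 (2 of 14 interferon response genes), and H2-Q6 by 1.15, while 0 of 8 loading partners and 0 of 11 promoter factors were called.

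Memory CD4 T cells gave no call among the 9 genes, beside 13.5% of 6016 genes, with 1 gene at an unadjusted p below 0.05 (23.6% of all genes) and 0 called by DESeq2, and calls appeared under another scaling. Of the 692 cells annotated as CD4+ Mem T in both nodes, 151 were Act. Treg by subset. H2-K1 had the smallest p (log2 difference 0.08, SE 0.039, adjusted p 0.191) although it averaged 3689 ± 172 CPM in CD4+ Mem T and 3084 ± 134 CPM in CD4+ Naive T (SD, n = 6 mice each), higher in 6 of 6 mice without overlap. With library size alone, B2m, H2-K1, H2-D1 and H2-Q7 were called higher (H2-K1 0.26, adjusted p 1.75e-07), and the median of all genes then stood at 0.18. The split of all called genes was 826 higher and 224 lower with library size alone, against 429 higher and 383 lower scaled by TMM. The loading partners rose in 4 of 8 cases and fell in 0: Hspa5 (0.86), Canx (0.57), Calr (0.44) and Pdia3 (0.39), all chaperones or folding enzymes of the endoplasmic reticulum. Pomp (0.62), the proteasome assembly gene, H2-Q6 (0.86) and Nfkb1 (0.86) rose, H2-T22 (-0.46) and H2-T10 (-0.97) fell, and 0 of 14 interferon response genes were called.

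**Figure D2:**
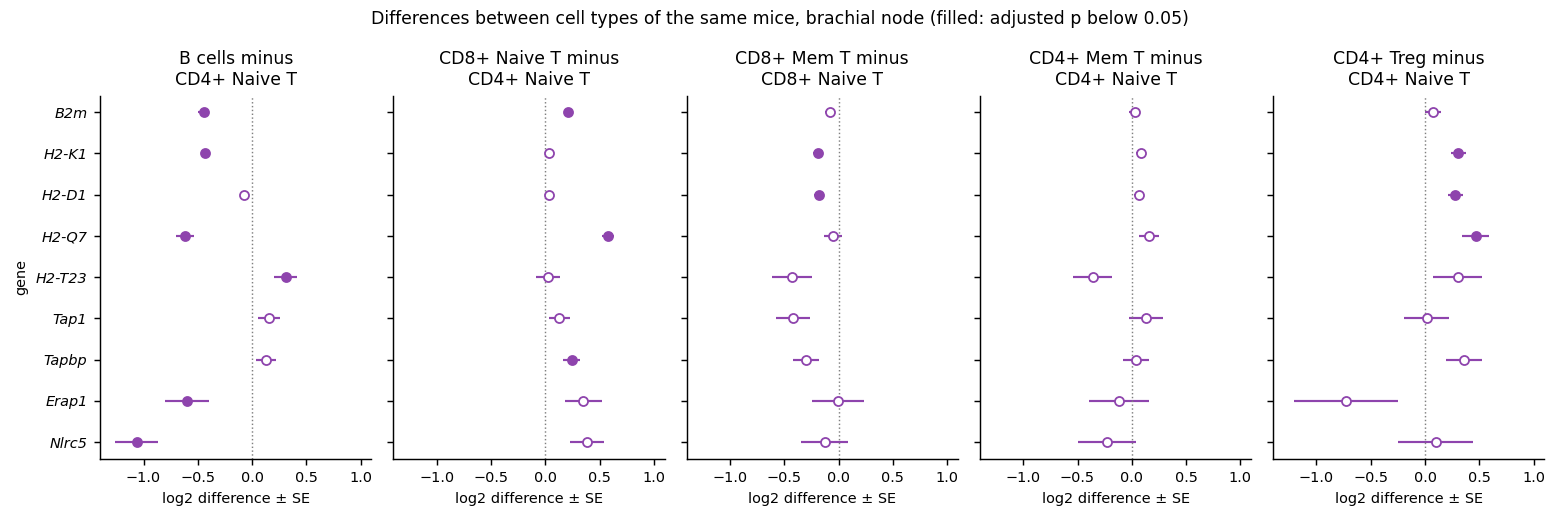
Log2 differences of the 9 genes between pairs of cell types in brLN, TMM-scaled (points, with bars of 1 SE), 1 panel a pair with the first-named type minus the second. Filled points have an adjusted p below 0.05. B cells minus CD4+ Naive T shows 5 filled points below 0 and H2-T23 above, and CD4+ Treg minus CD4+ Naive T shows 3 filled points above 0.

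Among the CD4 subsets, summed over both nodes of a mouse, Resting Treg had more H2-K1, H2-D1 and H2-Q7 than CD4+ Naive T. The same CD4+ Naive T sums served 4 of the 5 subset comparisons, as they did 4 of the 5 between cell types, so these are not independent of each other. Of the Resting Treg cells, 337 were annotated as CD4+ Treg and 10 as CD4+ Mem T. Their comparison thus shares cells and mice with that of CD4+ Treg above, with udLN added, and is not a separate finding. Resting Treg, 347 cells, had H2-K1 at 3350, 3899 and 4528 CPM (lowest, median and highest of 7 mice), against 2867, 3115 and 3278 CPM in CD4+ Naive T. H2-D1 stood at 2478, 2832 and 3092 CPM in Resting Treg, against 1915, 2168 and 2208 CPM in CD4+ Naive T. For both genes no value of the groups overlapped. H2-Q7 stood at 473, 580 and 737 CPM in Resting Treg, against 366, 395 and 507 CPM in CD4+ Naive T, and was higher in 7 of 7 mice. These 3 genes were called, all higher, beside 10.7% of 5098 genes: H2-K1 by 0.31 (SE 0.047, adjusted p 1.30e-07), H2-D1 by 0.34 (SE 0.051, adjusted p 7.02e-08) and H2-Q7 by 0.50 (SE 0.093, adjusted p 1.18e-05). Each held in 12 of 12 alternatives. Beside them, 5 of 15 interferon response genes rose and 0 fell, among them Gbp7 (1.59), Gbp2 (1.52), Igtp (0.68) and Bst2 (0.46). Psmb8 (0.40) and Psmb9 (0.39) of the immunoproteasome, Tap2 (0.44), Pdia3 (0.35) and H2-Q6 (1.34) rose too. Here library size alone gave 354 higher and 191 lower genes, against 263 and 282 scaled by TMM.

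Early Act. CD4 cells, 244 cells, gave 1 call among the 9 genes, a share no higher than the 13.5% of all 5281 genes called. This was H2-T23, whose level was 19.6, 52.6 and 117 CPM (lowest, median and highest of 7 mice), against 78.4, 104 and 148 CPM in CD4+ Naive T, and it was lower in 7 of 7 mice with overlapping groups. It fell by 0.79 on the log2 scale (SE 0.22, adjusted p 0.0112). Single mice had 1 to 20 H2-T23 UMIs in this subset, and the call held in 12 of 12 alternatives. Cd8a stood at 201.5 CPM in this subset, against 8.35 CPM in CD4+ Naive T, while CD8+ Naive T had 750 CPM, and its part in the result was not tested. Of the lists, 2 of 8 loading partners (Hspa5, 1.12, and Canx, 0.70), 1 of 7 other class I genes (H2-Q6, 1.11) and 1 of 6 constitutive proteasome genes (Psmb5, 0.44) rose in this subset, 2 of 12 interferon response genes (Ifit1, -1.81, and Ifit3, -1.51) fell, and 0 of 6 immunoproteasome genes were called.

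Activated Treg, Tfh and Th17 cells gave no call among the 9 genes with edgeR or DESeq2, and at an unadjusted p below 0.05 edgeR counted 2, 0 and 0, beside 25.8% of all genes in Act. Treg. Act. Treg, 196 cells of which 151 were annotated as CD4+ Mem T and 45 as CD4+ Treg, had B2m at 2174, 2824 and 3367 CPM, against 1675, 2117 and 2469 CPM in Resting Treg, higher in 6 of 6 mice. Its log2 difference was 0.21 (SE 0.087, adjusted p 0.105), beside calls for 15.5% of 2791 genes, with 8 of the 9 genes tested. For Tfh the smallest p was that of H2-Q7 (log2 difference 0.24, SE 0.14, adjusted p 0.343, 5 mice), beside calls for 9.61% of 4878 genes. For Th17 it was that of H2-T23 (-0.64, SE 0.33, adjusted p 0.359, 4 mice), beside calls for 6.66% of 7209 genes and a median of all genes of -0.13. With library size alone 3 genes were called in Act. Treg (B2m, H2-K1 and Tap1, all gene median 0.21), 4 in Tfh (B2m, H2-K1, H2-D1 and H2-Q7, median 0.29) and 1 in Th17 (H2-D1, median 0.20), all higher. The splits of all called genes were then 348 higher and 159 lower in Act. Treg, 482 and 155 in Tfh and 357 and 156 in Th17, against 200 and 233, 193 and 276, and 172 and 308 scaled by TMM. In Early Act. CD4 it was 476 and 242, against 321 and 391, and H2-K1 (0.18) was called beside H2-T23.

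Outside the 9 genes few list genes were called in these subsets. In Act. Treg over Resting Treg 2 of 7 loading partners rose (Hspa5, 1.11, and Calr, 0.93), as did Pomp (0.61), 1 of 6 immunoproteasome genes, while 2 of 12 interferon response genes fell (Gbp2, -0.99, and Gbp7, -0.94). In Tfh over CD4+ Naive T 2 of 8 loading partners rose (Hspa5, 1.00, and Pdia3, 0.66), H2-Q6 (1.34) rose and H2-T10 (-1.52) fell among 6 other class I genes, and 0 of 13 interferon response genes were called. In Th17 Pdia3 (0.70) of 8 loading partners and Pomp (0.73) of 6 immunoproteasome genes rose, H2-Q6 (0.96) rose and H2-T22 (-0.69) fell among 7 other class I genes, and 0 of 14 interferon response genes were called.

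**Figure D3:**
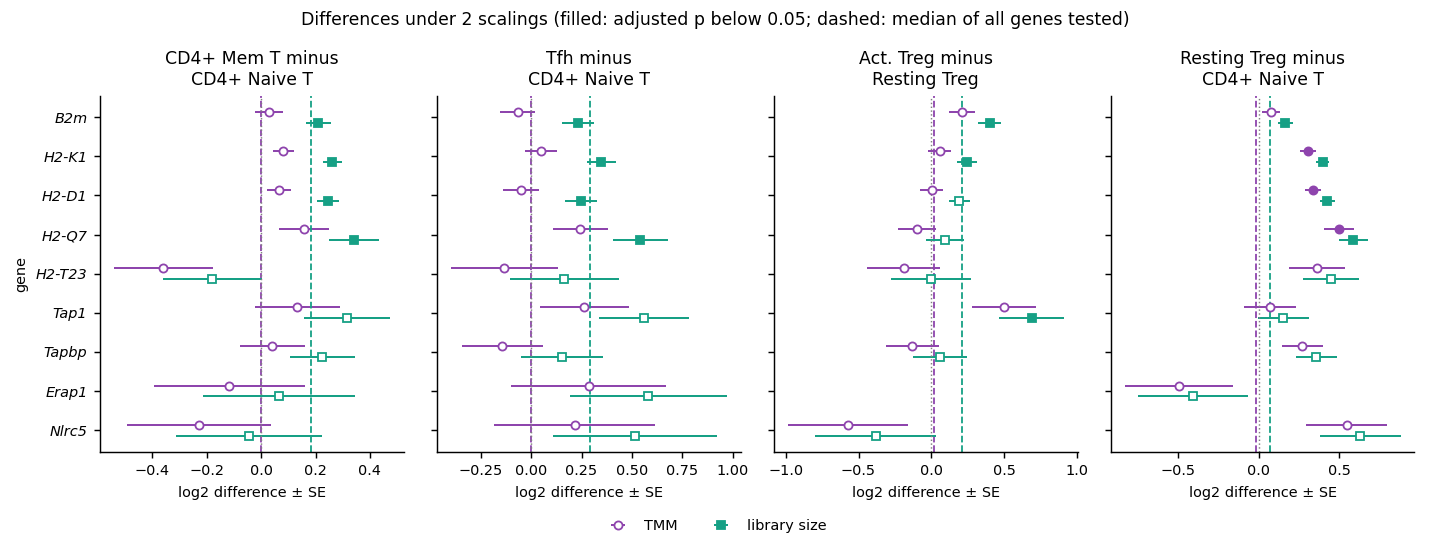
Log2 differences of the 9 genes in 4 comparisons of CD4 cells, under TMM scaling and under library size alone, with dashed lines at the median of all genes tested under each. In CD4+ Mem T minus CD4+ Naive T the values and the median of all genes lie higher with library size alone (median 0.18) than under TMM, while Resting Treg minus CD4+ Naive T keeps H2-K1, H2-D1 and H2-Q7 called under both.

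The share of each gene among the UMIs of the 4 heavy chain genes is independent of the scaling. It was examined after the levels had been seen, as values without a test. H2-D1 made up 41.4% to 43.4% of these UMIs in B cells of brLN, against 35.0% to 37.7% in CD4+ Naive T, higher in 7 of 7 mice without overlap, and in 5 of 6 mice in udLN. H2-K1 made up 48.6% to 50.1% in B cells, against 53.2% to 56.7% in CD4+ Naive T, lower in 7 of 7 mice without overlap, and in 5 of 6 in udLN. H2-T23 made up 2.19% to 3.25% in B cells, against 1.48% to 2.36% in CD4+ Naive T, higher in 7 of 7 mice in brLN and 6 of 6 in udLN. B cells thus carried a mix with more H2-D1 and H2-T23 and less H2-K1 and H2-Q7 than CD4+ Naive T. CD8+ Naive T had H2-Q7 at 9.07% to 11.8%, against 5.69% to 8.70% in CD4+ Naive T of brLN, and 8.85% to 12.1% against 7.14% to 7.98% in udLN, without overlap in either node. B2m UMIs per heavy chain UMI were 0.325 to 0.418 in CD8+ Naive T and 0.314 to 0.375 in CD4+ Naive T, higher in 6 of 7 mice in brLN and 6 of 6 in udLN. In CD4+ Treg they were 0.266 to 0.306, against 0.315 to 0.375 in CD4+ Naive T, lower in 5 of 5 mice without overlap in brLN and in 4 of 4 in udLN. These ratios count 3′ UMIs and not protein chains.

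**Figure D4:**
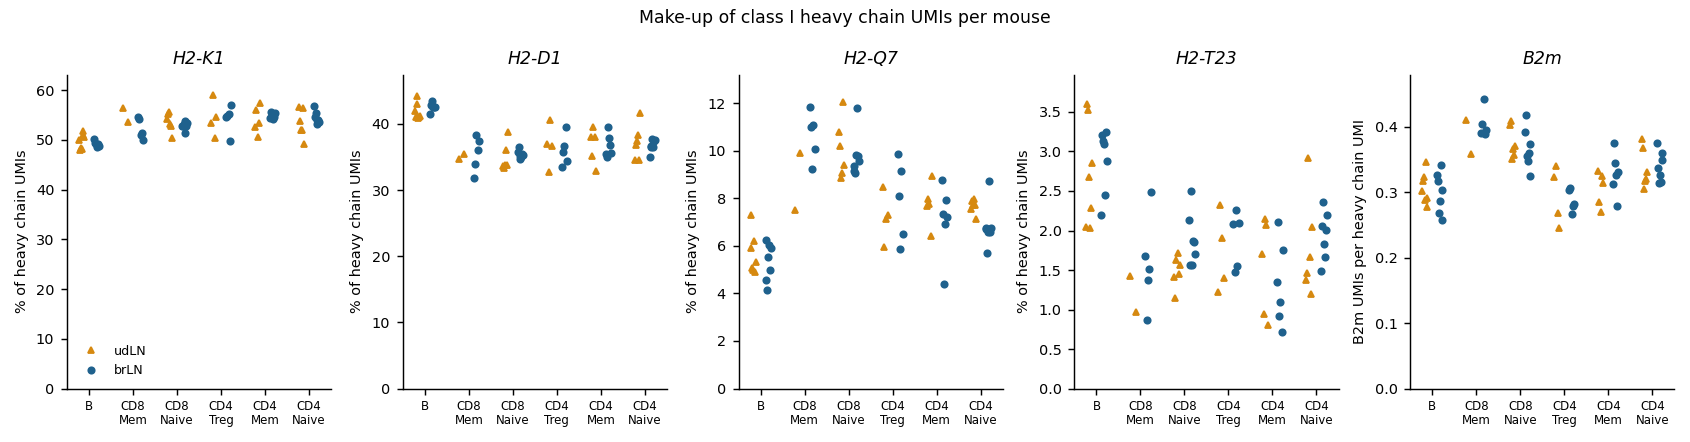
Share of H2-K1, H2-D1, H2-Q7 and H2-T23 among the UMIs of these 4 genes (percent), and B2m UMIs per heavy chain UMI, by cell type, 1 point a mouse, with triangles for udLN and circles for brLN. In brLN the B cell points lie above the CD4+ Naive T points for H2-D1 and below them for H2-K1, and the CD8+ Naive T points lie above them for H2-Q7 in both nodes.

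Between genotypes none of the 9 genes passed the test in any of 9 comparisons of Aire-DTR with WT mice, in B cells and the 2 naive T cell types of both nodes and in CD4+ Treg and the 2 memory T cell types of brLN. The test called few genes of any kind: in brLN 0% in B cells, 0.0428% in naive and 0.0768% in memory CD4 cells, 0.396% in CD4+ Treg, and 0.0131% in naive and 0.0801% in memory CD8 cells, and in udLN 0.0416% in B cells and 0.0725% and 0.0689% in naive CD4 and CD8 cells. These comparisons share mice, and those of udLN in T cells had 4 Aire-DTR and 2 WT mice, because the udLN of WT mouse 97 held too few cells. Aire-DTR mouse 36 was then the only mouse of pool 2, so with the pool term it did not bear on those log2 differences. The same held for Aire-DTR mouse 8 of pool 1 in CD4+ Mem T of brLN, where WT mouse 6 had too few cells. All 9 genes passed the filter on low counts except in CD4+ Treg of brLN and B cells of udLN, where 7 did. At an unadjusted p below 0.05 edgeR counted 3 of the 9 genes in B cells, 2 in naive CD4 cells, 1 in naive CD8 cells and 1 in CD4+ Mem T of brLN, 2 in naive CD8 cells of udLN and 0 in the others, and DESeq2 called 0 in each. The shares of all genes at that unadjusted threshold were 4.09% in B cells, 4.64% in naive CD4 cells, 4.65% in naive CD8 cells and 4.74% in CD4+ Mem T of brLN, and 5.7% in naive CD8 cells of udLN.

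In B cells of brLN 8 of the 9 log2 differences were negative, with a median of -0.17, and 3 genes had an unadjusted p below 0.05. The share of all genes with a negative log2 difference was not counted, so no background stands beside the 8 of 9. B2m was at 1576 CPM in Aire-DTR mouse 4, 1339 in mouse 7, 1087 in mouse 8 and 1400 in mouse 36, against 1677 in WT mouse 1, 1295 in mouse 6 and 1543 in mouse 97. The groups overlapped, while within each of the 3 pools the Aire-DTR mice lay below the WT mouse (log2 difference -0.22, SE 0.073, p 0.0095, adjusted p 0.992). H2-K1 was at 2426, 2082, 2001 and 2379 CPM in these Aire-DTR mice, against 2410, 2481 and 2473 CPM in the WT mice (-0.16, p 0.032, adjusted p 0.992), and mouse 4 lay above WT mouse 1. H2-D1 was at 2006, 1811, 1764 and 2095 CPM in the Aire-DTR mice, against 2095, 2142 and 2157 CPM in the WT mice (-0.17, p 0.022, adjusted p 0.992), without overlap, though mouse 36 lay less than 1 CPM below WT mouse 1. How many of all genes separated the groups in this way was not counted. In the same B cell sums T cell markers stood at 63.7 to 691 CPM in Aire-DTR and 116 to 637 CPM in WT mice, and hemoglobin transcripts at 8.13 to 2151 CPM in Aire-DTR and 8.31 to 1960 CPM in WT mice, and their part in these values was not tested.

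H2-Q7 had a lower mean in Aire-DTR mice in CD4+ Naive T of brLN and in CD8+ Naive T of both nodes, without a call. In CD4+ Naive T of brLN it was at 373, 348, 313 and 381 CPM in Aire-DTR mice 4, 7, 8 and 36, against 530, 369 and 392 CPM in WT mice 1, 6 and 97 (log2 difference -0.34, SE 0.11, p 0.0031, adjusted p 0.744). In CD8+ Naive T of brLN it was at 551, 463, 500 and 577 CPM in the Aire-DTR mice, against 717, 555 and 553 CPM in the WT mice (-0.26, SE 0.093, p 0.0082, adjusted p 0.999). The groups overlapped in both cell types, and WT mouse 1 was highest in each. In CD8+ Naive T of udLN it was at 589, 558, 505 and 517 CPM in the Aire-DTR mice, against 752 CPM in WT mouse 1 and 493 CPM in WT mouse 6 (-0.29, SE 0.12, p 0.014, adjusted p 0.679). Without WT mouse 1 the log2 difference was 0.083. Only pool 1 then held both genotypes, so that value came from mouse 8 against WT mouse 6 alone. In CD4+ Naive T of udLN the values were 414, 436, 443 and 476 CPM in the Aire-DTR mice, against 458 and 418 CPM in WT mice 1 and 6. H2-D1 in CD8+ Naive T of udLN had a log2 difference of -0.16 (SE 0.067, p 0.019, adjusted p 0.783). H2-D1 and H2-Q7 had negative log2 differences in 9 of 9 comparisons, H2-K1 in 7 and B2m in 4. Without WT mouse 1 those of H2-D1 and H2-Q7 were not all negative. As pool LN has no other WT mouse, mice 4 and 7 did not bear on those values either.

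Erap1 had the largest log2 difference, in CD4+ Mem T of brLN, on very few counts. It was at 60.7, 50.7, 23.3 and 60.9 CPM in Aire-DTR mice 4, 7, 8 and 36 (20, 21, 2 and 21 UMIs), against 6.18 CPM in WT mouse 1 and 25.8 CPM in WT mouse 97 (1 and 4 UMIs). The ranges overlapped through mouse 8, the only mouse of pool 1 here, which with the pool term did not bear on the log2 difference. That difference rested on mice 4, 7 and 36 against WT mice 1 and 97 (1.93, SE 0.67, p 0.0048, adjusted p 0.612). In CD4+ Naive T of brLN its log2 difference was 0.61 (SE 0.29, p 0.038, adjusted p 0.999). In the other comparisons the smallest p among the 9 genes belonged to H2-T23 in CD8+ Mem T (-0.55, adjusted p 0.997), Tap1 in CD4+ Treg (-0.83, SE 0.42, adjusted p 1.00), H2-K1 in B cells of udLN (-0.20, adjusted p 1.00) and H2-D1 in CD4+ Naive T of udLN (-0.10, adjusted p 0.975). Tap1 in CD4+ Treg of brLN averaged 122.8 ± 28.0 CPM in Aire-DTR mice (SD, n = 3) and 209.9 ± 6.13 CPM in WT mice (SD, n = 2). These ranges did not overlap, but they rest on few mice, and the share of all genes separated in this way was not counted. Both mice of pool 1 fell below the minimum of 20 cells here and are not in these values. B2m UMIs per heavy chain UMI were 0.299 ± 0.027 in Aire-DTR B cells of brLN (SD, n = 4) and 0.301 ± 0.042 in WT B cells (SD, n = 3).

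**Figure D5:**
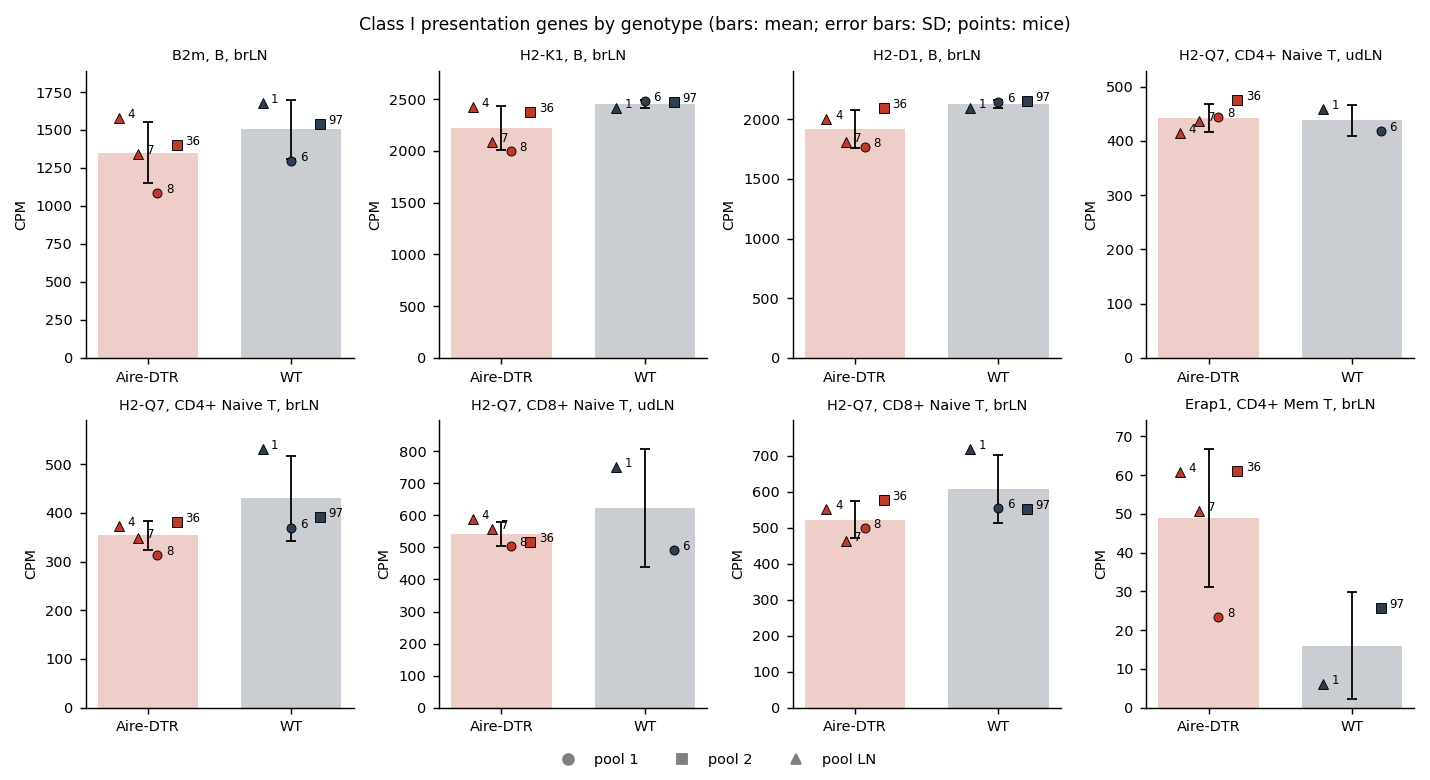
Levels in CPM by genotype for 8 combinations of gene, cell type and node, Aire-DTR left and WT right. Bars are means, error bars SD, and markers are single mice, shaped by pool and numbered. WT mouse 1 is the highest mouse for H2-Q7 in CD8+ Naive T of both nodes and in CD4+ Naive T of brLN, while Aire-DTR mouse 36 is the highest shown in CD4+ Naive T of udLN, and the B cell values of H2-D1 meet at 2095 CPM.

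The pathway lists gave no call between genotypes either: 0 list genes passed in any of the 9 comparisons. At an unadjusted p below 0.05, 8 of 15 interferon response genes had positive log2 differences in CD8+ Naive T of brLN, where 4.65% of all genes met that threshold, led by Ifit3 (log2 difference 0.94, SE 0.28, p 0.00128, adjusted p 0.770). Ifit1 (0.74), Gbp2 (0.54) and Igtp (0.44) were among them, and in udLN Ifit1 had 1.25 (adjusted p 0.247). The median log2 difference of the list was 0.43 in CD8+ Naive T of brLN and 0.32 in those of udLN. In B cells its sign differed between nodes, at -0.47 in brLN and 0.28 in udLN. In CD4+ Naive T it was 0.064 in brLN and 0.077 in udLN. In the remaining types of brLN it was -0.12 in CD4+ Mem T, -0.095 in CD4+ Treg and -0.027 in CD8+ Mem T.

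Between nodes of the same mouse 0 of the 9 genes were called in any cell type, beside 0% of genes in B cells and CD8+ Mem T, 0.0676% and 0.0757% in naive CD4 and CD8 cells, 0.106% in CD4+ Mem T and 0.119% in CD4+ Treg. DESeq2 called 0 as well, and at an unadjusted p below 0.05 edgeR counted 1, H2-T23 in CD8+ Naive T, where 5.36% of all genes met that threshold. In CD8+ Mem T and CD4+ Treg 7 of the 9 genes were tested. H2-T23 in CD8+ Naive T had the smallest p of all, at 83.8 ± 12.9 CPM in udLN and 108.9 ± 21.6 CPM in brLN (SD, n = 6 mice each), lower in udLN in 5 of 6 mice (log2 difference -0.42, SE 0.15, p 0.0055, adjusted p 0.634). In CD4+ Mem T all 9 log2 differences were positive (median 0.21), and H2-D1 averaged 2820 ± 101 CPM in udLN and 2461 ± 175 CPM in brLN, higher in udLN in 5 of 5 mice (0.16, adjusted p 0.717). Without WT mouse 1, the only WT mouse in this fit, B2m stood at -0.035 while the other members stayed positive. The share of all genes with a positive log2 difference was not counted. H2-Q7 in CD4+ Naive T averaged 440.9 ± 23.6 CPM in udLN and 385.8 ± 74.9 CPM in brLN (0.15, adjusted p 0.896). In the remaining types the smallest p was that of Erap1 in B cells (-0.34, adjusted p 1.00), H2-Q7 in CD8+ Mem T (-0.45, adjusted p 0.988, 2 mice) and H2-D1 in CD4+ Treg (0.11, adjusted p 0.998).

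The genotype difference was not shown to depend on the node. The test of udLN effect minus brLN effect called 0 of the 9 genes, beside 0.016% of genes in B cells and 0.0507% and 0.0303% in naive CD4 and CD8 cells. DESeq2 called 0 too, and 1 gene had an unadjusted p below 0.05, in CD4+ Naive T, as had 5.59% of all genes there. The smallest p were those of H2-Q7 in CD4+ Naive T (0.39, SE 0.18, p 0.040, adjusted p 0.889), Erap1 in CD8+ Naive T (0.78, adjusted p 0.923) and H2-T23 in B cells (0.33, adjusted p 1.00).

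Genes whose pattern was most like that of 4 members were searched among 2738 genes, over the 9 cell types with mice and nodes pooled. Pearson's r of log2 CPM describes 9 points that share libraries and depth. For B2m the closest were Rab37 (r = 0.95), Lcp2 (0.92) and Myl12a (0.92). For H2-K1 they were Fam53b (0.98), Tpr (0.98) and Ebp (0.96), for Tap1 they were Ap2m1 (0.92), P4hb (0.91) and Ppp1cc (0.90), and for Nlrc5 they were Slc9a3r1 (0.95), Rab37 (0.94) and Gbp2 (0.94).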

How the data were processed

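Lymph node cells of 7 pregnant mice were measured by droplet 3′ single-cell RNA sequencing. The submitters' processing notes name genome build GRCm38 and the tools Seurat, Scanpy 1.7.0, kallisto 0.46.1 and bustools 0.40.0, and the sources used here give neither their roles nor the cell filters. The deposited matrix holds raw UMI counts per cell and gene, and the deposited cell tables give mouse, node, genotype and cell type. The labels differ on the sort, with CD45+ CD3+ in the protocol and CD45+ in the design. The 9 genes, the lists and the comparisons were chosen with earlier results of these data known. The deposited scaled values, which hold 0 of the 9 genes among 1212 genes and Tap1 and Erap1 among 2411 genes of CD4 cells, were not used, and neither were uterine cells.

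Counts were summed per mouse, node and cell type (at least 20 cells) or per mouse and CD4 subset (at least 10 cells), passed through filterByExpr and TMM scaling, and tested with edgeR 4.0.16 (quasi-likelihood, R 4.3.3), with Benjamini-Hochberg adjustment over all genes tested and a threshold of 0.05. Genotype fits took 1 node at a time with pool as a term, since the labels put both genotypes in every pool. Where the minimum of cells left a pool with a single genotype, its mice did not bear on the log2 difference. Node, interaction, cell type and subset fits took the mouse as a block, since each mouse gave all sums compared. The mouse is the replicate in every fit. The p-values of genotype fits measure spread between animals beyond the pool term. Those of the blocked fits measure how differences within a mouse vary between mice. No doublets were removed. The SE of a log2 difference is its size divided by the root of the F statistic. Intervals (95%, exact Poisson) and the limit of 3 counts behind a count of 0 cover counting error only. Members were named in each comparison where called, and otherwise the 1 with the smallest p. Of each list, up to 4 called genes by smallest p were eligible for naming, and some genes beyond these, the genotype values of H2-K1, H2-D1 and B2m in B cells, of H2-Q7 in naive T cells and the Tap1 levels in CD4+ Treg were chosen after their values were seen. H2-T3, Azgp1 and Isg15 of the lists are not analysed here. One promoter factor gene counted in its list is not reported here by name. Alternatives were DESeq2 1.42.0, other scalings, no low-count filter, no pool term or block, other cell minimums or nodes, cells of mixed lineage left out, and each mouse left out.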

Additional observations from a re-analysis of the deposited data

How the results depend on the processing

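The 96 results were differences of single genes and counts of called genes, with 1143 alternative values. Of these values 972 were the same, 33 weaker, 3 stronger, 2 reversed and 133 moved. A single gene was the same where it kept direction and side of the threshold. A count was the same where it stayed equal to the reported count or within a fixed fold range of it, and otherwise had moved. With library size alone in place of TMM, 4 genes instead of 0 were called in CD4+ Mem T minus CD4+ Naive T, 5 instead of 2 in CD8+ Mem T minus CD8+ Naive T, 3, 4 and 1 instead of 0 in Act. Treg, Tfh and Th17, and 2 instead of 1 in Early Act. CD4. In CD8+ Mem T minus CD8+ Naive T, DESeq2 called 1 gene, udLN in place of brLN 0, and leaving out single mice 0 (without WT mouse 1) to 2. In CD4+ Treg minus CD4+ Naive T, no low-count filter called 0 genes instead of 3, and leaving out single mice called 1 (without WT mouse 97) to 3. In B cells minus CD4+ Naive T, DESeq2 called 4 genes instead of 6. The genotype difference of H2-Q7 in CD8+ Naive T of udLN ranged over -0.36 to 0.083 with single mice left out. It turned positive without WT mouse 1, where it came from mouse 8 against WT mouse 6 alone. The node difference of H2-D1 in CD4+ Treg turned to -0.0030 with no low-count filter. The cause of these changes was not tested.

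Without the mouse as a replicate block, with pool in its place, Tapbp in CD8+ Naive T minus CD4+ Naive T missed the threshold (0.25, adjusted p 0.0643). B2m, H2-K1 and H2-Q7 in B cells and B2m and H2-Q7 in CD8+ Naive T were called in 14 of 14 alternatives. For genotype, 0 of the 9 genes were called under any alternative. Counts of all genes called for genotype moved most in B cells with no low-count filter, to 53 in brLN (0 as reported) and 37 in udLN (2), and in CD4+ Mem T to 21 with a mouse left out (4). The node count in B cells moved to 41 (0) and in CD4+ Mem T to 27 (4), and the interaction count in B cells to 47 (1), with no low-count filter. Over the alternatives and mice left out, cell type counts ranged over 518 to 1050 (812) for CD4+ Mem T, 48 to 416 (411) for CD8+ Mem T, 198 to 409 (342) for CD4+ Treg, 429 to 899 (876) for CD8+ Naive T and 1783 to 3348 (3063) for B cells, and subset counts over 241 to 507 (433) for Act. Treg and 271 to 592 (480) for Th17. Erap1, Nlrc5 and H2-T23 rested on few UMIs per sum, which limits their precision.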

Other observations

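The NK, gdT and Myeloid types reached 20 cells in 1 mouse and node at most, gdT of brLN in Aire-DTR mouse 7, which allowed no comparison, and are given as single values over all mice and nodes, with exact 95% Poisson intervals. NK cells, 69 in number and marked by Ncr1 at 868 CPM, had H2-K1 at 4046 CPM (3808 to 4295), H2-D1 at 3261 CPM (3048 to 3485) and H2-Q7 at 902 CPM (791 to 1023). In gdT cells, 98 in number, H2-Q7 stood at 724 CPM (628 to 831). Myeloid cells, 92 in number, had H2-K1 at 1959 CPM (1816 to 2110), H2-D1 at 2616 CPM (2451 to 2790) and H2-Q7 at 243 CPM (194 to 300). Hbb-bs, a hemoglobin gene, stood at 43975 CPM in the Myeloid cells, and its part in these values was not tested. The 9 genes made up 1.11% of all UMIs in NK cells, 0.939% in gdT cells and 0.744% in Myeloid cells.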
